A study of Rattus norvegicus with 4 samples.

Results

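Alpha and beta crystallins, together with the gamma crystallins, make up most of the soluble protein of the lens. The genes described were *Cryaa*, *Cryab*, *Cryba1*, *Cryba2*, *Cryba4*, *Crybb1*, *Crybb2* and *Crybb3*, chosen as the probe sets whose only gene symbol in the platform annotation is 1 of these 8 names. Each of the 8 genes had exactly 1 such probe set, so 8 of 31042 probe sets, or 8 of 14217 genes with a symbol of their own, were followed. All 8 passed the filter on low values that left 18625 probe sets for testing.

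The RNA came from lens capsules with the lens epithelial cells (LECs) attached, taken from female albino Sprague-Dawley rats after extracapsular lens extraction (ECLE), a model of posterior capsule opacification (PCO). Every rat had ECLE at 7 weeks of age, and 3 groups followed in time: day 0, sampled once surgery was completed, at 7 weeks (1 array), 1 W at 8 weeks (2 arrays of biological replicates) and 2 W at 9 weeks (1 array). Day 0 tissue was therefore operated tissue, not an untouched lens. The methods assign 6 right eyes at each time to the arrays and speak of 3 samples in each group, how eyes were pooled or divided over the arrays was not given, and each p-value rests on the spread of the 2 arrays at 1 W alone.

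Alpha crystallins are small heat shock proteins that keep other lens proteins from aggregating, and *Cryaa* and *Cryab* encode the subunits of their large complexes. Beta crystallins share a protein fold with gamma crystallins, have acidic (*Cryba*) and basic (*Crybb*) subunits, and give the fiber cell its refractive protein content. In the mammalian lens the epithelium already makes alpha crystallins, while beta and gamma crystallins accumulate as epithelial cells become fiber cells. Maf, Pax6, Prox1, Sox proteins and heat shock factors are among the transcription factors that act on crystallin genes in mice.

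The DNA upstream of 4 of the genes is shown because transcription factors bind there: *Cryaa* as an alpha crystallin, *Crybb1* and *Cryba1* as the genes with the highest and the lowest ratio at 2 W, and *Cryba4* as the neighbor of *Crybb1*. Each run is the 250 bases before a RefSeq transcription start in rat assembly GRCr8, 5′ to 3′ on the strand of the gene, at chr20:9784661-9784910, + strand (*Cryaa*), chr12:50043757-50044006, - strand (*Crybb1*), chr10:63112818-63113067, - strand (*Cryba1*) and chr12:50046799-50047048, + strand (*Cryba4*). Capitals mark matches to TGCTGA, the core of the Maf recognition element, or to AACAAT, the Sox binding core.
Cryaa: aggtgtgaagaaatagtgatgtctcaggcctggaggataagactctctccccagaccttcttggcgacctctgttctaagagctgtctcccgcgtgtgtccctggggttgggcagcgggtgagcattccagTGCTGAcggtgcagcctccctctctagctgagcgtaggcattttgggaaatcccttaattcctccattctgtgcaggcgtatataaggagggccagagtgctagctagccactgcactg
Crybb1: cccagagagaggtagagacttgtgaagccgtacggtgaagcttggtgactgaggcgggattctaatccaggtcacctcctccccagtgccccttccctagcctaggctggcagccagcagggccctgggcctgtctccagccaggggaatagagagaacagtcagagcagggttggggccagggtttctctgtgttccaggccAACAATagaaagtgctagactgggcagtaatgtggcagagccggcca
Cryba1: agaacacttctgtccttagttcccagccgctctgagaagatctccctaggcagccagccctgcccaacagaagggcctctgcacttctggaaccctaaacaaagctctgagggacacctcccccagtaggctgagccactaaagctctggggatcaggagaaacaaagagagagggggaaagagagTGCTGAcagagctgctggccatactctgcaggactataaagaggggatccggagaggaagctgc
Cryba4: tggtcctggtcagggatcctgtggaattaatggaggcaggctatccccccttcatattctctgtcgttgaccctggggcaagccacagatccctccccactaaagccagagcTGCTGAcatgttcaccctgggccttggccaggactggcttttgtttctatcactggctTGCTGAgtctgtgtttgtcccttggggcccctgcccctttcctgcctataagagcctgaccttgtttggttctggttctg
Of the 8 genes, 7 had an upstream window in the RefSeq table, and *Cryab* had none. *Cryaa* had 2 overlapping windows with the same match, and the first is shown. TGCTGA, on either strand, was found in 4 of the 7 genes (*Cryaa*, *Cryba1*, *Cryba2* and *Cryba4*, the last with 2 matches), against 15.1% of all 33469 windows of the same length. AACAAT was found in *Crybb1* and *Crybb2*, against 10.3% of all windows. The heat shock element core GAANNTTC, on either strand, was in 0 of the 7 windows, against 7.23% of all windows. None of the matches overlapped another, and a match describes letters only. In the gene order of that assembly *Crybb1* lies next to *Cryba4* and *Crybb3* next to *Crybb2*, all on chromosome 12, and *Cryab* lies next to *Hspb2* on chromosome 8.

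All 8 genes gave signals near the top of every array. Among 31042 probe sets, their ranks from the brightest ran from 4 to 116 at day 0, from 2 to 51 and from 4 to 62 on the arrays of 1 W replicate 1 and replicate 2, and from 6 to 69 at 2 W. The lowest percentile any of them reached was 99.6, for *Crybb1* at day 0. Their share of the summed intensity of the array was 0.945% at day 0, 1.21% and 1.11% on the 1 W arrays, and 1.37% on the 2 W array. The brightest probe set of each array, 1375340, carried no gene symbol, and it read 14184, 13811, 12344 and 11917 in the same order. The second brightest was 1375651, also without a symbol, at day 0 and in 1 W replicate 2, *Cryba1* in 1 W replicate 1 and *Rps29*, a ribosomal protein gene, at 2 W. Relative to the brightest value, the 8 probe sets stood at 39.6% to 82.8% on the day 0 array, 59.7% to 93.2% and 57.8% to 89.3% on the 1 W arrays, and 55.0% to 85.0% on the 2 W array. The files carry no mark of saturated probes, so whether signals this high had stopped following the amount of RNA was not tested.

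**Figure D1:**
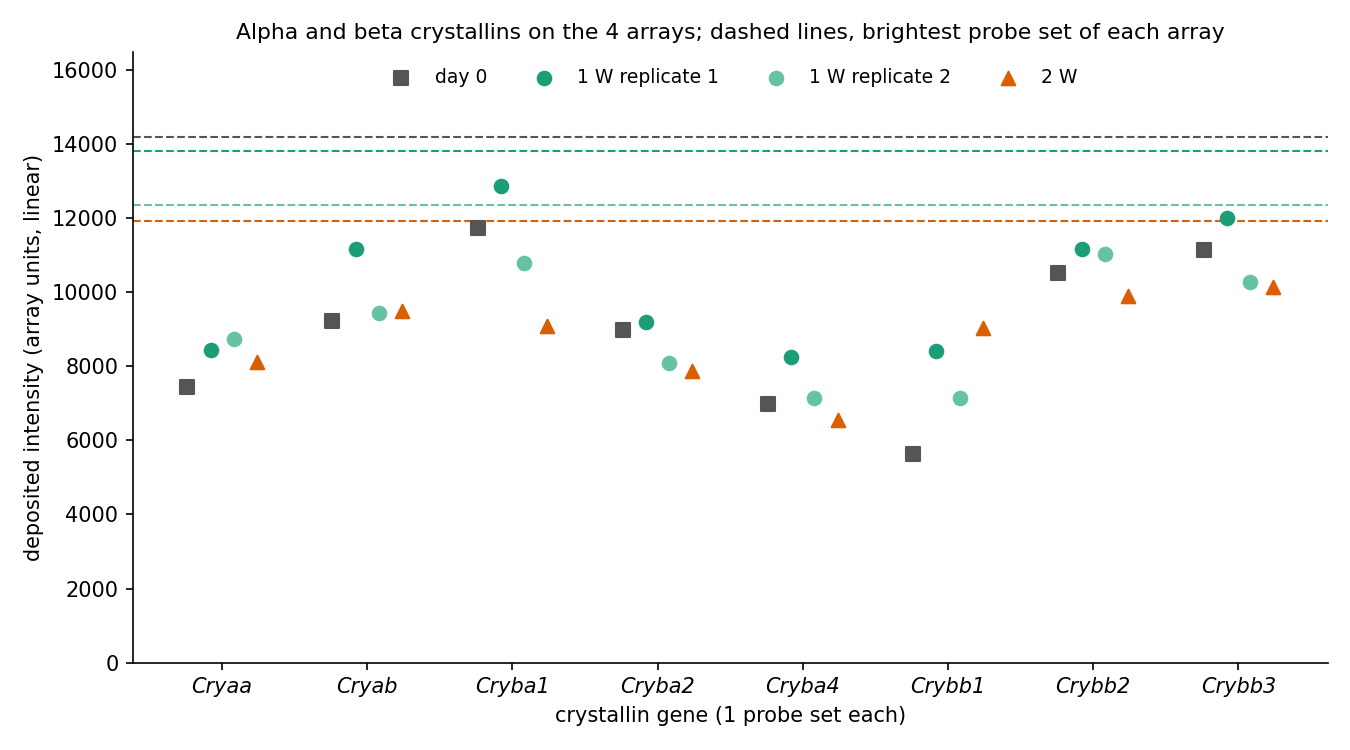
Deposited intensity (linear, array units) of the 8 alpha and beta crystallin probe sets on the day 0 array, the 2 arrays at 1 W and the 2 W array, 1 point for each array, with dashed lines at the brightest probe set of each array. The points stand at 39.6% to 93.2% of the line of their array, and *Crybb1* at 5620 on day 0 is the point farthest below its line.

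The arrays differed in their average brightness, so each value was divided by the mean of its array (244 at day 0, 218 and 210 at 1 W, 165 at 2 W) before ratios to day 0 were taken on the log2 scale. A log2 ratio of 1.00 is a 2.0-fold higher value. By this measure all 8 genes lay above day 0 on each of the 3 arrays after ECLE, which 22.7% of the tested probe sets did. Of the 8, 7 stayed between 0.5-fold and 2.0-fold of day 0 on each of these arrays, as did 73.4% of the tested probe sets, and both of these rules were chosen after the values had been seen. In bulk tissue, fewer cells of a type and less RNA per cell cannot be told apart.

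*Cryaa*, which encodes alpha A crystallin, the form largely restricted to the lens, read 7430.3 at day 0, 8439 and 8741 at 1 W, then 8114 at 2 W. After scaling, its log2 ratio to day 0 was 0.35 and 0.45 on the arrays at 1 W, then 0.69 at 2 W. The estimates were 1.32-fold at 1 W (95% interval 1.06 to 1.64) and 1.62-fold at 2 W (1.26 to 2.08). Neither passed the test across all probe sets (limma, adjusted p = 0.223 at 1 W, then 0.0727 at 2 W). *Cryaa* had the second highest ratio of the 8 genes at both times.

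*Cryab*, which encodes alpha B crystallin, a chaperone also made in heart, muscle and brain, read 9229 at day 0, 11171 and 9451 at 1 W, then 9500.4 at 2 W. Its log2 ratios were 0.44 and 0.25 at 1 W, then 0.61 at 2 W, all above 0. The fold at 2 W was 1.52 (95% interval 1.14 to 2.04, limma adjusted p = 0.0959), and at 1 W it was 1.27 (0.990 to 1.64, limma adjusted p = 0.289). At both times both alpha crystallins lay above the median of the 8 genes.

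Of the acidic beta crystallins, *Cryba1*, whose transcript gives the beta A3 and beta A1 proteins, read 11739 at day 0, 12876 and 10798 at 1 W, then 9087 at 2 W. It was the brightest of the 8 probe sets at day 0 and in 1 W replicate 1. Its log2 ratio was 0.30 and 0.10 at 1 W, then 0.20 at 2 W. The 95% intervals held 0 at 1 W (-0.17 to 0.57) and at 2 W (-0.23 to 0.62), with limma adjusted p of 0.476 and 0.437. *Cryba1* was the lowest of the 8 ratios at 2 W, and its log2 difference between 2 W and 1 W was -0.0021 (SE 0.13).

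*Cryba2* read 8986 at day 0, 9186 and 8078 at 1 W, then 7871 at 2 W, with log2 ratios of 0.20 and 0.06 at 1 W, then 0.38 at 2 W. It had the lowest ratio of the 8 genes on both arrays at 1 W. *Cryba4* read 6991 at day 0, 8240.3 and 7141 at 1 W, then 6553 at 2 W, with log2 ratios of 0.40 and 0.25 at 1 W, then 0.47 at 2 W. Both encode acidic beta subunits, and neither passed the test at 2 W (limma adjusted p = 0.164 for *Cryba2* and 0.125 for *Cryba4*).

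Among the basic beta crystallins, *Crybb1* stood apart. In rodents and chicken its protein accumulates as fiber cells form, and its probe set read 5620 at day 0, 8403 and 7138 at 1 W, then 9041 at 2 W. All 3 arrays after ECLE lay above day 0, also before scaling. The log2 ratio was 0.75 and 0.56 at 1 W, then 1.25 at 2 W, the highest of the 8 genes on each array. The estimate was 1.58-fold at 1 W (95% interval 1.23 to 2.02, limma adjusted p = 0.159) and 2.38-fold at 2 W (1.79 to 3.18, limma adjusted p = 0.0577). *Crybb1* was thus the 1 gene of the 8 over 2.0-fold at 2 W, as were 5.88% of the tested probe sets, and it missed the threshold of 0.05 in the test. It was 1.61-fold in the values as deposited and 1.65-fold with quantile normalization, under 2.0-fold in both. With the median or the 75th percentile of the array as divisor, or with no scaling, it passed (limma adjusted p = 0.0267, 0.0486 and 0.0482). The share of all tested probe sets that passed under these settings is not given here. Over the 10 alternatives the lowest limma adjusted p among the 8 genes at 2 W ran from 0.0267 to 0.149.

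*Crybb2*, the gene of the most abundant basic beta subunit of the adult mammalian lens, read 10529 at day 0, 11161 and 11027 at 1 W, then 9906 at 2 W. Its log2 ratios were 0.25 and 0.29 at 1 W, then 0.48 at 2 W (limma adjusted p = 0.0973 at 2 W). *Crybb3* read 11130 at day 0, 11993 and 10277 at 1 W, then 10134 at 2 W, with log2 ratios of 0.27 and 0.10 at 1 W, then 0.43 at 2 W (limma adjusted p = 0.146 at 2 W). These neighbors on chromosome 12 had ratios within 0.05 of each other at 2 W, whereas the neighbors *Crybb1* and *Cryba4* had 1.25 and 0.47.

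**Figure D2:**
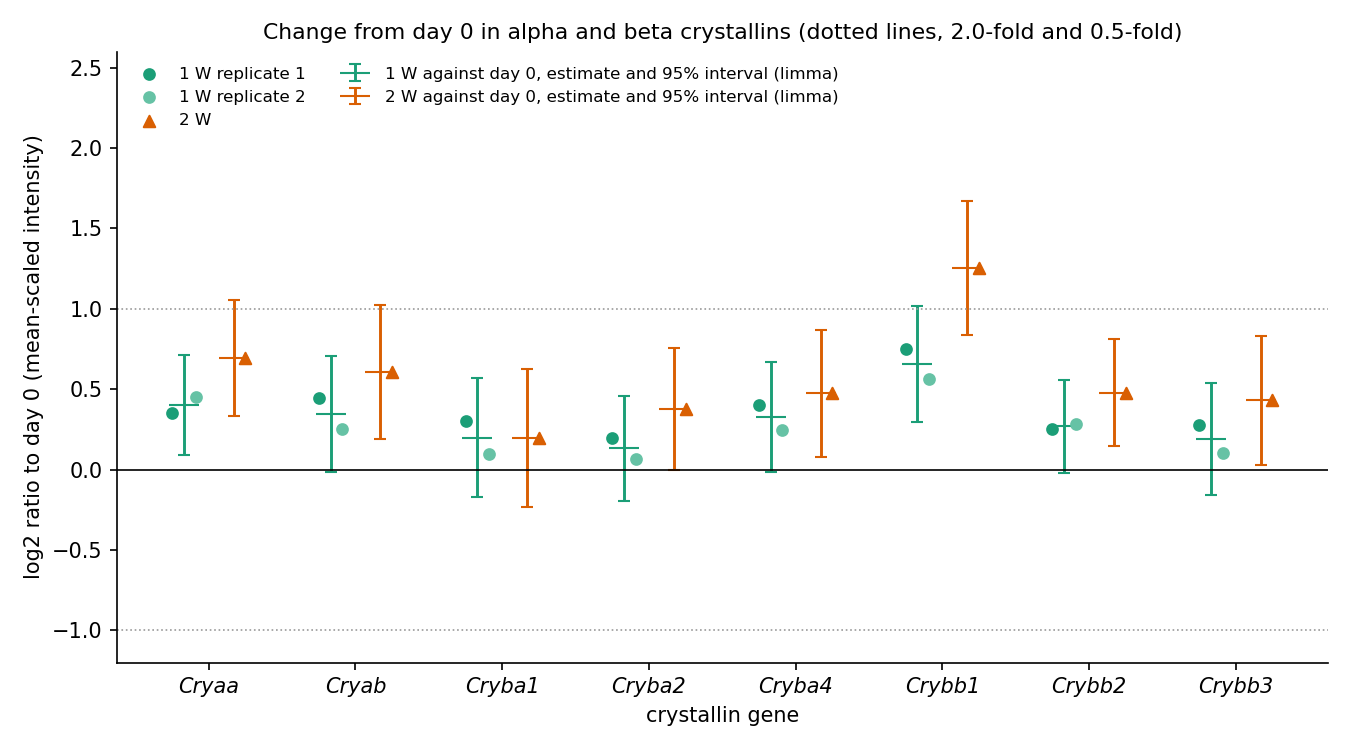
Log2 ratio of mean-scaled intensity to day 0 for the 8 genes, with points for 1 W replicate 1, 1 W replicate 2 and 2 W, dashes for the limma estimates and bars for their 95% intervals. All points lie above 0 and only *Crybb1* at 2 W (1.25) lies above the dotted line at 2.0-fold.

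Over the 8 genes as a group, the median log2 ratio was 0.30 at 1 W against day 0, where the median of all tested probe sets was -0.08. At 2 W against day 0 it was 0.48, beside -0.26 for all tested probe sets, and at 2 W against 1 W it was 0.24, beside -0.20. At 1 W the test called 0 of the 8, with 0.0483% of all tested probe sets called. At 2 W it also called 0 of the 8 (0.0483% of all), and between 2 W and 1 W 0 of the 8 (0.0% of all). At an unadjusted p under 0.05, 2 of the 8 were higher at 1 W (*Cryaa* and *Crybb1*), 6 at 2 W (all but *Cryba1* and *Cryba2*) and 1 at 2 W against 1 W (*Crybb1*). Of all tested probe sets, 8.21%, 9.01% and 5.5% were higher by that rule in the same 3 comparisons. None of the 8 was lower (0 of 8 each time), against 9.66%, 21.9% and 16.4% of all tested probe sets. These counts are for division by the array mean, and the direction depended on the scaling. At 2 W 5 of the 8 lay below day 0 and 3 above in the values as deposited. With quantile normalization 3 lay below and 5 above. The 8 genes were read on the same arrays, so they are not independent. By the fold rules, 0 of 8 were over 2.0-fold at 1 W (4.24% of tested probe sets) and 0 were under 0.5-fold (4.99%). At 2 W, 0 of 8 were under 0.5-fold (14.4%). Between 2 W and 1 W, 0 of 8 were over 2.0-fold (2.6%) or under 0.5-fold (5.29%).

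The 2 arrays at 1 W read the 8 genes alike. Replicate 1 minus replicate 2 ran from -0.10 for *Cryaa* to 0.20 for *Cryba1* on the log2 scale, with a median size of 0.16, against 0.21 over all tested probe sets. The limma intervals at 1 W lay within 2.0-fold of day 0 for 7 of the 8 genes, the exception being *Crybb1*, and at 2 W for 5 of the 8, the exceptions being *Crybb1*, *Cryaa* and *Cryab*. The spread among the 8 genes (SD of the log2 ratio) was 0.17 and 0.18 on the arrays at 1 W, then 0.32 at 2 W. Over the tested probe sets it was 0.75, 0.64 and 0.85 on the same arrays. Nearly all of the tested probe sets were dimmer than these 8, and no SD is given for probe sets of like brightness.

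The direction against day 0 of the beta crystallins other than *Crybb1* depended on how the arrays were scaled, at 2 W for all 5 of them, while *Cryaa*, *Cryab* and *Crybb1* were above day 0 under each scaling run. All 8 were above day 0 at both times with the mean, the median, the 75th percentile or the mean without crystallins as divisor. With quantile normalization 7 were higher at 1 W, then 5 at 2 W, and with the values as deposited 6 were higher at 1 W, then 3 at 2 W (*Cryaa*, *Cryab* and *Crybb1*). The median over the 8 genes at 2 W ran from 0.79 with the 75th percentile to -0.09 as deposited. The scaling shifted all probe sets too, with the median of the tested probe sets at 2 W between 0.05 and -0.83 under these settings. A difference between genes on the same arrays is by construction the same under any divisor, and the 2 genes set against the others here were picked as the extremes at 2 W. *Crybb1* exceeded the median of the other 7 by 0.39 at 1 W and by 0.78 at 2 W under every divisor (0.40 and 0.66 with quantile normalization). *Cryba1* differed from the median of the other 7 by -0.13 at 1 W and by -0.28 at 2 W under every divisor (-0.10 and -0.37 with quantile normalization). The standard error of the *Cryba1* ratio at 1 W was 0.13, as large as its difference from the others there.

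**Figure D3:**
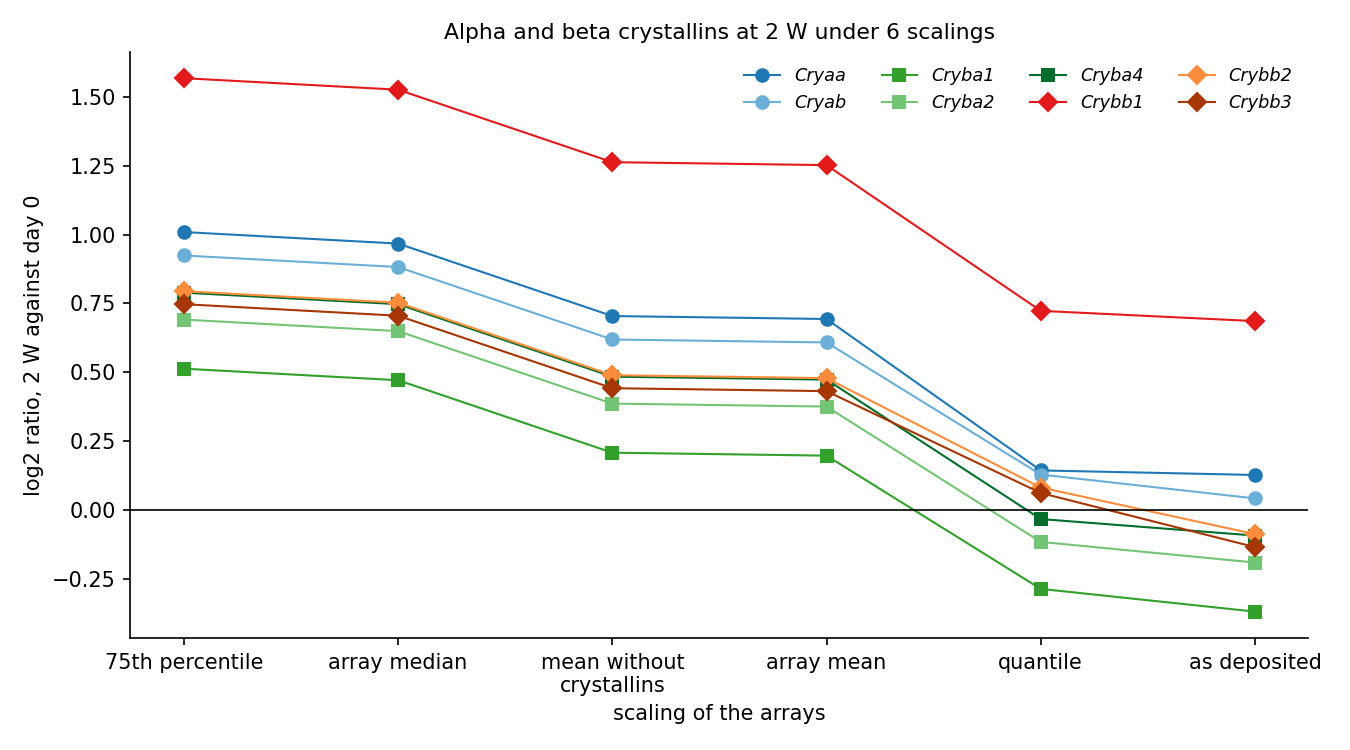
Log2 ratio of 2 W against day 0 for each of the 8 genes under 6 scalings of the arrays, 1 line for each gene. Every gene is above 0 under the 4 divisors at left, only 3 of the 8 are above 0 in the values as deposited, and *Crybb1* is at the top and *Cryba1* at the bottom throughout.

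Brightness at day 0 and the later ratio were related over the 8 genes. *Crybb1*, with the largest ratio at 2 W, was the dimmest of the 8 probe sets at day 0, a factor of 2.52 below the brightest value of that array. *Cryba1*, with the smallest ratio at 2 W, was the brightest, a factor of 1.21 below it. Over the 8 genes the Pearson correlation of log2 intensity at day 0 with the log2 ratio at 2 W was -0.82 (Spearman -0.67), although both quantities use the day 0 array. With the ratio of 2 W against 1 W, which does not use that array, it was -0.73 (Spearman -0.60), and without *Crybb1* it was -0.38 (Spearman -0.39). Genes are not independent replicates, and the part of signal compression in these ratios was not tested.

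Other probe sets of like brightness were read beside the crystallins. At day 0, 108 other probe sets read at or above 5620, the value of *Crybb1*, a group chosen after the values had been seen. Of these, 99 (91.7%) stayed between 0.5-fold and 2.0-fold of day 0 on each array after ECLE, and 66 lay above day 0 on each of them, while 30 lay below. Their median log2 ratio was 0.24 and 0.11 on the arrays at 1 W, then 0.44 at 2 W, against 0.33, 0.25 and 0.48 for the 8 crystallins. At 2 W, 2 of the 108 were over 2.0-fold, the highest being a probe set of *Pgk1*, a glycolytic enzyme gene, at 1.26 on the log2 scale. Another *Pgk1* probe set in the group, brighter at day 0, had 0.72. Another 5 were under 0.5-fold, the lowest being *Ass1* at -2.22, *Cdh1* (E-cadherin) at -1.89 and a probe set of *Col4a1* (a basement membrane collagen) at -1.58. Another *Col4a1* probe set in the group had -1.06.

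**Figure D4:**
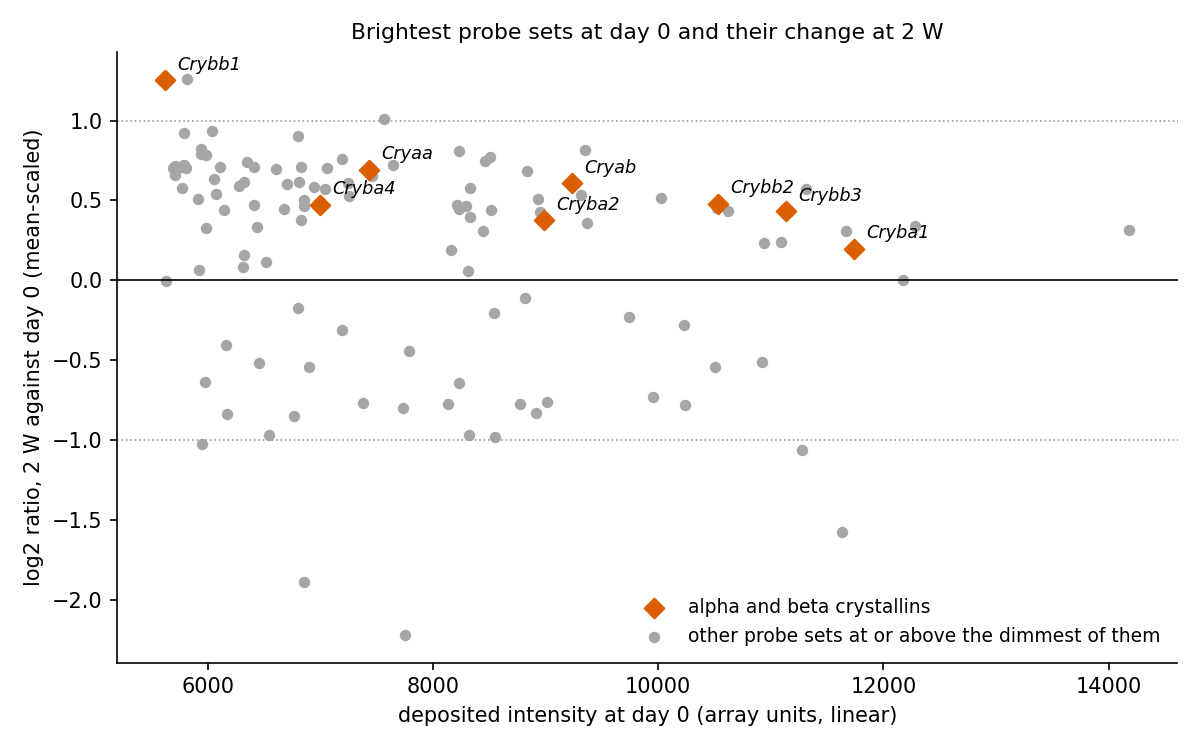
Deposited intensity at day 0 (linear axis) against the log2 ratio of mean-scaled intensity, 2 W against day 0, for the 8 crystallins (diamonds) and the 108 other probe sets at or above the dimmest of them (circles), with dotted lines at 2.0-fold and 0.5-fold. The crystallins lie between 0.20 and 1.25, and the other probe sets reach down to -2.22.

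The gamma crystallins, the third family, are fiber cell proteins, and on these arrays they varied far more than the alpha and beta crystallins. The list held 8 genes, of which 6 had a probe set with a symbol of their own and 5 passed the filter. *Crygs*, the gamma crystallin of the adult lens, read 11087 at day 0, 11007 and 9714 at 1 W, then 8836 at 2 W, with log2 ratios of 0.16, 0.03 and 0.24. *Crygn*, a relative of both beta and gamma crystallins, read 4088 at day 0, 5740.4 and 3792 at 1 W, then 8354 at 2 W, with log2 ratios of 0.66, 0.11 and 1.60. *Crygd* read 5502 at day 0, 681 and 40.2 at 1 W, then 7327 at 2 W, and *Crygc* read 2938 at day 0, 342 and 156 at 1 W, then 7103 at 2 W. *Crygd* and *Crygc* were thus below day 0 on both arrays at 1 W and above it at 2 W, by -2.85 and -6.88 and then 0.98 (*Crygd*) and by -2.94 and -4.02 and then 1.84 (*Crygc*) on the log2 scale. *Cryga* had 2 probe sets that disagreed, and the counts use the one with the higher mean log2 level, which was dim at day 0 (12.8) and read 19.2 and 20.7 at 1 W, then 24.2 at 2 W. At 1 W 3 of the 6 gamma crystallins were under 0.5-fold (4.99% of tested probe sets), and at 2 W 3 were over 2.0-fold (5.88%). On the log2 scale the medians were -1.69 at 1 W, then 1.23 at 2 W. The 3 at 2 W include the *Cryga* probe set used in the counts, which lay under the filter. The other *Cryga* probe set read 1318 at day 0, 1.48 and 2.41 at 1 W, then 23.0 at 2 W, or -9.63, -8.88 and -5.28 on the log2 scale. With it, an alternative chosen after seeing the data, 4 of the 6 were under 0.5-fold at 1 W (median -4.17), and at 2 W 2 were over 2.0-fold and 1 under 0.5-fold (median 0.93). A probe set annotated to both *Crygf* and *Cryge*, which is not in these counts, stayed far below day 0 at 2 W (-8.14). The test called 0 of the 5 that passed the filter at either time (lowest adjusted p = 0.119 at 1 W, then 0.0709 at 2 W, limma). The gamma crystallin genes from *Cryga* to *Crygf* are close copies of each other, so their probe sets may share signal.

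**Figure D5:**
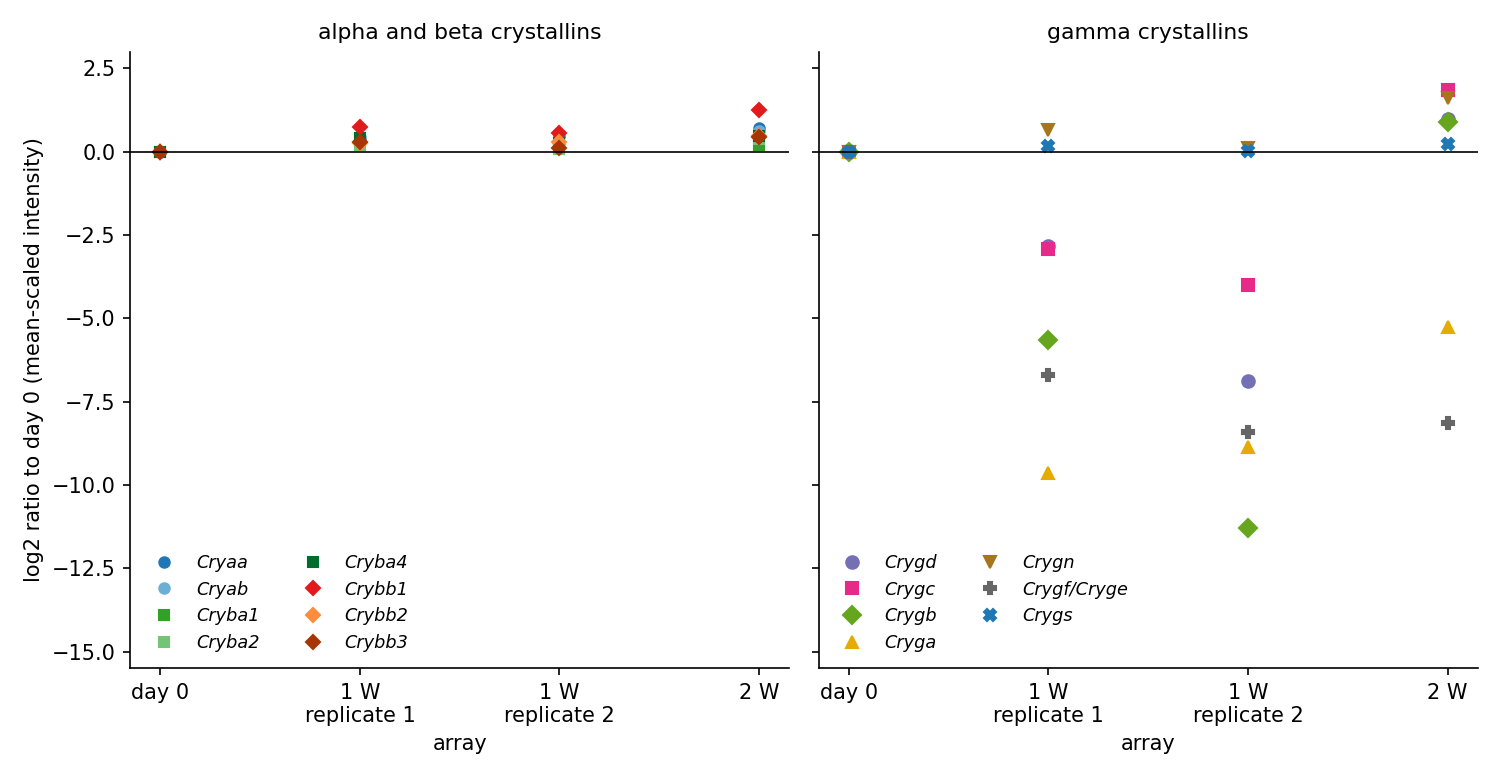
Log2 ratio of mean-scaled intensity to day 0 on the 4 arrays, 1 point for each array, for the 8 alpha and beta crystallins (left) and for gamma crystallin probe sets (right), where the dim *Cryga* probe set used in the counts is left out, the other one is plotted, and *Crygf/Cryge* is a probe set annotated to both genes. The left panel stays between 0.06 and 1.25 after ECLE. The right panel reaches -11.3 for *Crygb* in 1 W replicate 2, where its intensity was only 0.76. In 1 W replicate 1 *Crygb* read 39.8, or -5.64.

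Lens fiber genes other than crystallins were measured for 12 of 15 listed, and 11 were tested. Here and below, a gene counted as measured if a probe set carried its symbol alone. At 1 W 1 of the 12 was over 2.0-fold (4.24% of tested probe sets) and 3 were under 0.5-fold (4.99%). At 2 W 10 were over 2.0-fold (5.88%). On the log2 scale the medians were 0.05 at 1 W, then 1.71 at 2 W, and the test called 0 at either time. The gene under the filter is in these counts, as 1 of the 3 under 0.5-fold at 1 W. Among the 4 brightest, *Grifin*, a galectin-like lens protein gene, had the log2 ratio closest to those of the crystallins, at 0.10 at 1 W, then 0.53 at 2 W. *Lim2*, a fiber membrane protein gene, had 0.56 and 1.56, *Gja3*, which encodes connexin 46, had -0.06 and 1.13, and *Fabp5*, a fatty acid binding protein gene, had -1.42 and 1.50. The 8 crystallins, with 1 over 2.0-fold at 2 W, had a median of 0.48 there.

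The other small heat shock proteins, relatives of the alpha crystallins, were all measured (8 of 8), and 5 were tested with 0 called. Over all 8, genes under the filter included, the median log2 ratio was 0.18 at 1 W, then 0.50 at 2 W. *Hspb1*, which encodes the stress chaperone Hsp27, read 166 at day 0, 317 on both arrays at 1 W, then 312 at 2 W, or 2.18-fold and 2.78-fold of day 0 after scaling (limma adjusted p = 0.122 and 0.0577). *Hspb2*, the genomic neighbor of *Cryab*, had log2 ratios of 0.05 at 1 W, then 0.40 at 2 W. *Hspb6* had 0.13 and -0.14, and *Hspb7* had 0.10 and 0.37. Of 13 heat shock response genes 10 were measured, with a median of 0.30 at both times and 0 called. The brightest of the 10 were *Hsp90ab1*, a cytosolic chaperone gene, at 0.55 and 0.62, and *Hspd1*, a mitochondrial chaperonin gene, at 0.68 and 0.45. A probe set annotated to both *Haus8l2* and *Hspa8*, which is not in this count, was brighter, reading 6606 at day 0. Its log2 ratios were 0.50 and 0.35 on the arrays at 1 W, then 0.70 at 2 W.

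Of the 19 lens transcription factors that act on crystallin genes, 18 were measured and 16 tested, with 0 called. Their median log2 ratio was -0.09 at 1 W, then -0.28 at 2 W, close to those of all tested probe sets (-0.08 and -0.26). Single genes moved both ways at 2 W, from -1.46 to 3.37. At that time 3 of the 18 were over 2.0-fold (5.88% of tested probe sets) and 4 under 0.5-fold (14.4%), genes under the filter included. *Maf*, the factor of the TGCTGA motif, was the brightest, reading 6515 at day 0, 4459 and 3718 at 1 W, then 4754 at 2 W, with log2 ratios of -0.49 at 1 W, then 0.11 at 2 W. *Pax6*, the early eye regulator, had -0.10 and -0.98 (limma adjusted p = 0.0577 at 2 W). Genes named crystallins for enzymes or related proteins were measured for 6 of 9 listed. Of these *Crym*, a thyroid hormone binding protein gene, had log2 ratios of -0.91 and 0.81 on the arrays at 1 W (SE of their mean 0.76) and 0.18 at 2 W, and *Cryzl1*, a quinone oxidoreductase relative, had -0.59 and -0.18.

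Outside these lists, among 10349 other genes, the 5 whose log2 ratios were most like the median of the 8 crystallins on the 3 arrays after ECLE were *Glrb*, *Commd3*, *Dffa*, *Zcchc9* and *Mrpl27*. The summed absolute difference over the 3 arrays was 0.05 for *Glrb* and 0.09 for *Mrpl27*. Their intensities at day 0 ran from 33.9 (*Glrb*) to 1852 (*Commd3*), far below the crystallins, and the likeness is over 3 arrays only.

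Markers of other cells moved between the same arrays. Lens epithelium markers were present throughout, with 11 of 12 measured markers at or above the filter on every array and *Lgr6* the dimmest, and their median log2 ratio was -0.07 at 1 W, then -0.37 at 2 W. Of the 12, 3 were under 0.5-fold at 1 W, then 4 at 2 W (4.99% and 14.4% of tested probe sets). At each time 1 was over 2.0-fold (4.24% and 5.88%), and the log2 ratios at 2 W ran from -2.99 to 1.49. Of the brightest, *Igfbp7*, a secreted binding protein gene, had log2 ratios of 0.24 and 0.08 at 1 W, then 0.36 at 2 W, and *Gja1* (connexin 43) had -0.16, 0.10 and -0.54. The 14 measured photoreceptor markers summed to 6.51 and 25.7 array means at 1 W, then 8.44 at 2 W, against 63.0 at day 0, and the brightest were *Sag*, the rod arrestin gene (-2.84, -1.26 and -3.15 on the 3 later arrays), and *Pde6g*, a rod phosphodiesterase gene (-3.47, -1.29 and -2.66). The 13 macrophage markers summed to 18.2 and 14.4 array means at 1 W, then 9.92 at 2 W, against 2.72 at day 0. The brightest were *Lyz2*, a lysozyme gene (3.26, 2.87 and 2.38), and *Fcer1g*, an Fc receptor subunit gene (2.44, 2.21 and 1.57). Over the 13 the log2 ratios at 2 W ran from -0.78 to 2.38 (median 1.47). The 5 pigment cell markers summed to 66.1 and 23.3 at 1 W, then 36.0 at 2 W, against 10.2 at day 0, led by the melanin synthesis genes *Tyrp1* (1.81, 0.83 and 1.17) and *Dct* (3.75, 1.99 and 2.81). The 8 smooth muscle and myofibroblast markers summed to 21.0 and 10.04 at 1 W, then 9.66 at 2 W, against 1.91 at day 0, and *Tagln*, an actin binding protein gene, passed the test at both times (6.08, 5.79 and 4.75, limma adjusted p = 0.0297 at 1 W, then 0.049995 at 2 W). The 5 Mueller glia markers summed to 12.3 and 21.7 at 1 W, then 10.8 at 2 W, against 17.0 at day 0. Their brightest were *Glul*, the glutamine synthetase gene (0.01, 0.62 and -0.19), and *Aqp4*, a water channel gene (-2.21, -0.56 and -2.43). Over the 5 the log2 ratios at 2 W ran from -2.43 to 0.50 (median -0.39). Each of these sums is weighted toward its brightest genes. The signal of the 3′ beta-actin probe set over that of the 5′ one, which grows as RNA breaks down, was 1.89 and 1.90 at 1 W, then 1.61 at 2 W, against 2.32 at day 0. The same ratio for GAPDH was 1.12 and 1.18 at 1 W, then 1.10 at 2 W, against 1.16 at day 0. The part of these differences in the crystallin ratios was not tested.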

How the data were processed

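The RNA of lens capsules with LECs was hybridized to Affymetrix rat genome arrays. The authors deposited 1 linear intensity per probe set and array, made with Affymetrix Expression Console, which the submitters' processing notes also name. The algorithm behind the probe set values is one that the sources used here do not give. The methods divide each value by control values or by the average of the array, and since the array means differ, division by the array average is not in the deposited values. Whether division by control values is was not tested.

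The 57 control probe sets among 31099 were left out, which left 31042 with intensities between 0.0183 and 14184. Every value was divided by the mean of its array and converted to log2. Names came from the platform annotation, where 20826 probe sets had 1 symbol, 436 several and 9780 none. Probe sets under the 40th percentile of the mean log2 level were dropped, and a 3-group model was fitted to the remaining 18625 with limma (version 3.58.1, R 4.3.3, moderated by eBayes with a trend in intensity). Tests were two-sided, p-values were adjusted by Benjamini-Hochberg over all 18625, and the threshold was 0.05. The fit had 1 residual and 3.12 prior degrees of freedom. The fit was also run on simulated data with known changes. Tables were made with Python 3.11.15, pandas 2.3.3, numpy 2.4.6, scipy 1.17.1 and matplotlib 3.10.9. The number of arrays limits the precision.

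The members, the gene lists and the tests were chosen with earlier results of these data known. Named are all 8 members, up to 2 called genes per direction of each other list or else its 2 brightest (4 for gamma crystallins, lens fiber genes and small heat shock proteins), the 5 genes most like the members and the 2 brightest probe sets of each array. *Pgk1*, *Ass1*, *Cdh1*, *Col4a1*, *Lgr6*, *Crygb* and the probe set of *Haus8l2* and *Hspa8* were named after their values were seen. Alternatives were 5 other scalings, no filter or the 60th percentile, limma without trend or with robust estimation, 1 probe set per gene, and leaving out either array at 1 W. A second *Cryga* probe set was tried as an alternative after seeing the data. Protein sequences were not used here.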

Additional observations from a re-analysis of the deposited data

How the results depend on the processing

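With 2 groups of 1 array, no spread was measured at day 0 or 2 W, and without either array at 1 W the fit had no residual degree of freedom, so those settings gave values with no test. No paired analysis was possible because each rat was sampled at a single time. Members called stayed at 0 under every alternative run at 1 W against day 0 and at 2 W against 1 W. At 2 W against day 0 it was 1, *Crybb1*, with the array median, with the 75th percentile and with values as deposited (limma, log2 ratios 1.53, 1.57 and 0.69), and 0 under the other 7. The share of all tested probe sets called under those settings is not given here, so the count of 1 has no background beside it. Over 2.0-fold at 2 W were 2 of 8 with the 75th percentile, and 0 with quantile normalization and with values as deposited. The median log2 ratio of the 8 genes, in the order array median, 75th percentile, quantile normalization and values as deposited, was 0.42, 0.37, 0.097 and 0.10 at 1 W, 0.75, 0.79, 0.071 and -0.091 at 2 W, and 0.40, 0.48, -0.089 and -0.13 at 2 W against 1 W. Leaving out either array at 1 W gave medians of 0.25 to 0.33 at 1 W and of 0.17 to 0.28 at 2 W against 1 W.

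At 1 W against day 0 the sign turned for *Cryba2* with quantile normalization (-0.025) and as deposited (-0.061), and for *Crybb3* as deposited (-0.0036). At 2 W against day 0 it turned with quantile normalization for *Cryba1* (-0.29), *Cryba2* (-0.12) and *Cryba4* (-0.033), and as deposited for *Cryba1* (-0.37), *Cryba2* (-0.19), *Cryba4* (-0.093), *Crybb2* (-0.088) and *Crybb3* (-0.14). At 2 W against 1 W, with quantile normalization and as deposited, it turned for *Cryaa* (-0.087 and -0.082), *Cryab* (-0.099 and -0.11), *Cryba2* (-0.091 and -0.13), *Cryba4* (-0.10 and -0.23), *Crybb2* (-0.041 and -0.16) and *Crybb3* (-0.010 and -0.13). *Cryba1*, at -0.0021 there, was 0.15 with the array median, 0.24 with the 75th percentile, 0.0074 with the mean without crystallins and 0.099 without 1 W replicate 1. The remaining alternatives for single genes kept the direction. These settings differ only in how each array is scaled, apart from the last, which uses fewer arrays.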
